A study of Mus musculus with 8 samples.

Results

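The 10 genes described here carry iron and heme through the small intestinal epithelium: Cybrd1, Slc11a2 and Slc46a1 at the gut lumen, Slc40a1 and Heph at the blood side, the transferrin receptor Tfrc, the ferritin subunits Fth1 and Ftl1, the heme-degrading enzyme Hmox1, and the transcription factor gene Epas1. They were taken by gene symbol from a table of 55880 genes. All 10 were found, and all 10 passed the filter on low counts. RNA-seq was made from small intestinal crypts of mice named as C57BL/6N. The groups are 4 libraries labelled miR-29ab1-/- (labelled knockout below), a genotype that names the locus of miR-29a and miR-29b-1, and 4 wild-type libraries. No irradiation had been given to either group, according to the title of the series. The sources used here give no age, sex, litter or extent of the deletion. A difference in age, sex or litter between the groups, if there was one, cannot be told apart from the labelled genotype. The p-values set the difference between the groups against the spread between libraries of the same group.

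Dietary iron is reduced at the brush border by duodenal cytochrome b, the product of Cybrd1, and is carried into the enterocyte by DMT1, the product of Slc11a2. Inside the cell it is held in ferritin or leaves to the blood through ferroportin, the product of Slc40a1, and is oxidised there by hephaestin. Iron regulatory proteins bind stem-loops called iron-responsive elements. Such an element near the start of a transcript blocks translation when iron is low, and elements in the 3' UTR of Tfrc protect that transcript from decay. HIF-2alpha, encoded by Epas1, raises transcription of intestinal iron transport genes when iron or oxygen is low.

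The targeted locus does not settle which group lacks the microRNAs. Mir29a had 0 counts in every library, and Mir29b-1 had 2, 5, 7 and 3 counts in labelled knockout replicates 1 to 4, against 0 in every wild-type library. Those counts go against the labels, so the groups are named by label throughout. Depth was 13879472 to 16004356 counts in the labelled knockout libraries and 14264940 to 17368666 in the wild-type libraries. Labelled knockout replicate 4 stood apart. Across the 14897 genes tested, its mean correlation of log2 CPM with the other libraries was 0.948, against 0.963 to 0.970 for the other 7. The 13 enterocyte markers, none at 0 in any library, summed to 77995 CPM (counts scaled to one library size with TMM factors) in it, against 13461 to 33183 CPM in the other labelled knockout libraries and 17596 to 32888 CPM in the wild-type libraries. Crypt stem cell markers were detected in every library, at summed levels of 967 to 2822 CPM in the labelled knockout group and 1679 to 3187 CPM in the wild-type group. The libraries therefore held RNA of both stem and absorptive cells, and in such mixed RNA fewer cells of a type and less RNA per cell cannot be told apart.

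Stem-loops of the iron-responsive type were found in 4 of the 10 genes, and they are shown because iron regulatory proteins act through such elements. The search asked for a C, 5 bases, the loop CAGTGN and 5 bases pairing with the first 5, on the transcript strand of annotated UTRs. It matched the 5' UTR of 3 members and of 0.229% of 12238 tested genes, and the 3' UTR of 1 member and of 0.783% of 12386. The sequences below run 5' to 3' with the loop in capitals, on GRCm38, from GENCODE M21 transcripts.
Fth1, 5' UTR, chr19:9982732-9982760, plus strand: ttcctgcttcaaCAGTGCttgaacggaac
Ftl1, 5' UTR, chr7:45459779-45459807, minus strand: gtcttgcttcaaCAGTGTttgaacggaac
Slc40a1, 5' UTR, chr1:45925465-45925493, minus strand: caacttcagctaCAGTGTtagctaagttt
Tfrc, 3' UTR, chr16:32631219-32631247, plus strand: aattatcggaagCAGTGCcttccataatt
Tfrc, 3' UTR, chr16:32631598-32631626, plus strand: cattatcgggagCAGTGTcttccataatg
Tfrc, 3' UTR, chr16:32631663-32631691, plus strand: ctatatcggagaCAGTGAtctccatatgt
Tfrc, 3' UTR, chr16:32631710-32631738, plus strand: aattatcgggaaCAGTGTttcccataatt
The ferritin elements have the same upper stem and differ in the last base of the loop, and Tfrc carries 4 matches within its 3' UTR. The other 6 genes had no match of this strict pattern in their annotated UTRs. The pattern allowed no mismatch or bulge in the 5 pairs, so an element of another form would be missed. These genes, Slc11a2 and Epas1 among them, are therefore not shown to lack such an element. Read counts measure transcript amount, so control of ferritin and ferroportin translation is outside what was measured.

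The microRNAs named in the genotype share their seed, bases 2 to 8, in capitals below (RefSeq, GRCm38.p6, chromosome 6, minus strand).
mmu-miR-29a-3p, 31062673 to 31062694: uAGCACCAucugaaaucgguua
mmu-miR-29b-3p, 31063025 to 31063047: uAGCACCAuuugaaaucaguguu
The matching site, TGGTGCT, was not in the longest annotated 3' UTR of any of the 10 genes, which ran from 156 bases in Fth1 to 4269 bases in Cybrd1. Of 12386 tested genes with a 3' UTR of at least 50 bases, 15.5% held the site on the transcript strand. Only this exact site was searched. Other or shorter seed matches, coding sequence and other transcripts were not, so the 10 genes are not shown to lack miR-29 sites.

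Per gene length, ferritin transcripts were the most abundant of the 10 and ferroportin and heme oxygenase transcripts the least. The authors' deposited FPKM, which are counts per kilobase of gene over a size-factor scaled total, were used to order the genes. The length is the one deposited for the gene, such as 9000 bases for Slc40a1 and 1751 for Hmox1. It may differ from the length of the transcript, so the order rests on these lengths. Over all 8 libraries Fth1 ranged from 190 to 356 FPKM with a median of 266, and Ftl1 from 136 to 210 FPKM with a median of 179. Their ranges overlapped, though Fth1 was above Ftl1 in 8 of 8 libraries. Tfrc followed with a median of 35.8 FPKM and Heph with 32.1 FPKM, and Tfrc was the higher in 6 of 8 libraries. Slc46a1 (median 11.1 FPKM), Slc11a2 (9.92 FPKM) and Epas1 (4.44 FPKM) came next, each overlapping its neighbour in range. Cybrd1 had a median of 1.27 FPKM, and its lowest library was above the highest of Hmox1. Hmox1 (0.623 FPKM) and Slc40a1 (0.499 FPKM) overlapped, with Hmox1 the higher in 3 of 8 libraries. In CPM, which are not divided by length, Slc40a1 was above Hmox1. The means were 4.09 and 7.99 CPM for Slc40a1 in the labelled knockout and wild-type groups, against 0.731 and 1.17 CPM for Hmox1.

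**Figure D1:**
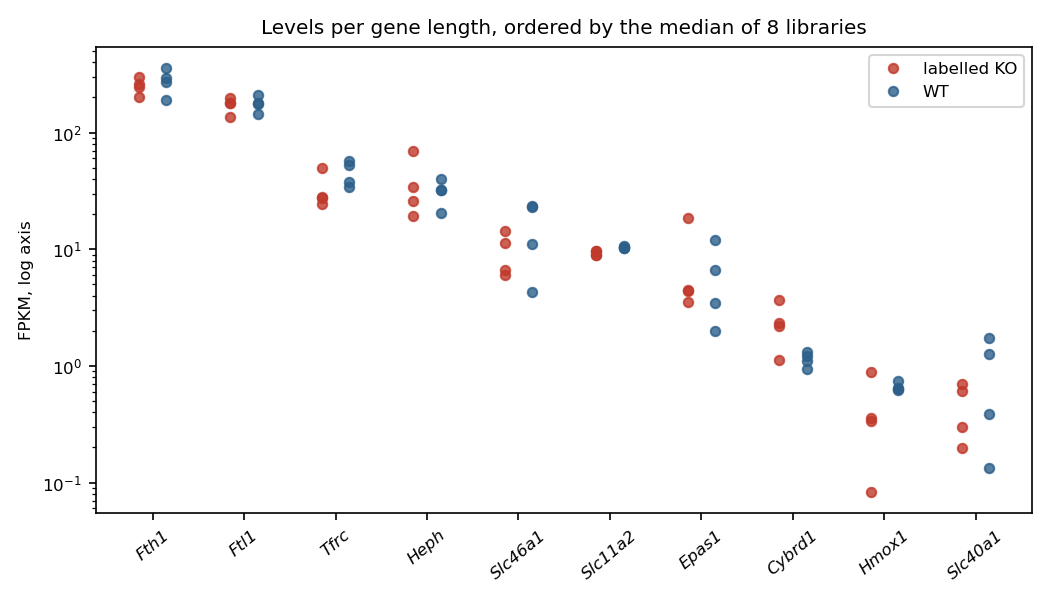
FPKM of each gene in each library on a log axis, with genes ordered by their median over 8 libraries, labelled knockout points to the left of wild-type points. Ftl1 lies wholly above Tfrc, and Cybrd1 wholly above Hmox1; the other neighbours overlap.

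No member passed the threshold between the groups. The comparison asked which transcripts differ between crypts labelled miR-29ab1-/- and wild-type crypts. With edgeR's quasi-likelihood test and an adjusted p under 0.05, 0 of the 10 were called, where 0.0201% of the 14897 genes tested were called. DESeq2 and limma-voom also called 0 of the 10, where they called 0.151% and 0.0134% of the genes they tested. At an unadjusted p under 0.05, 1 of 10 was reached, Cybrd1, against 2.70% of all genes tested (1.87% higher and 0.832% lower in labelled knockout). The log2 fold change, labelled knockout over wild type, was above 0 in 3 members and below 0 in 7. The median was -0.15, against 0.011 over all genes tested. Every member had an edgeR adjusted p = 0.994, so the values below are given as levels and differences with their intervals, none of which passed the test over all genes. Each 95% interval is for a single gene and is not adjusted for the number of genes, while its estimate of spread draws on all genes tested.

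**Figure D2:**
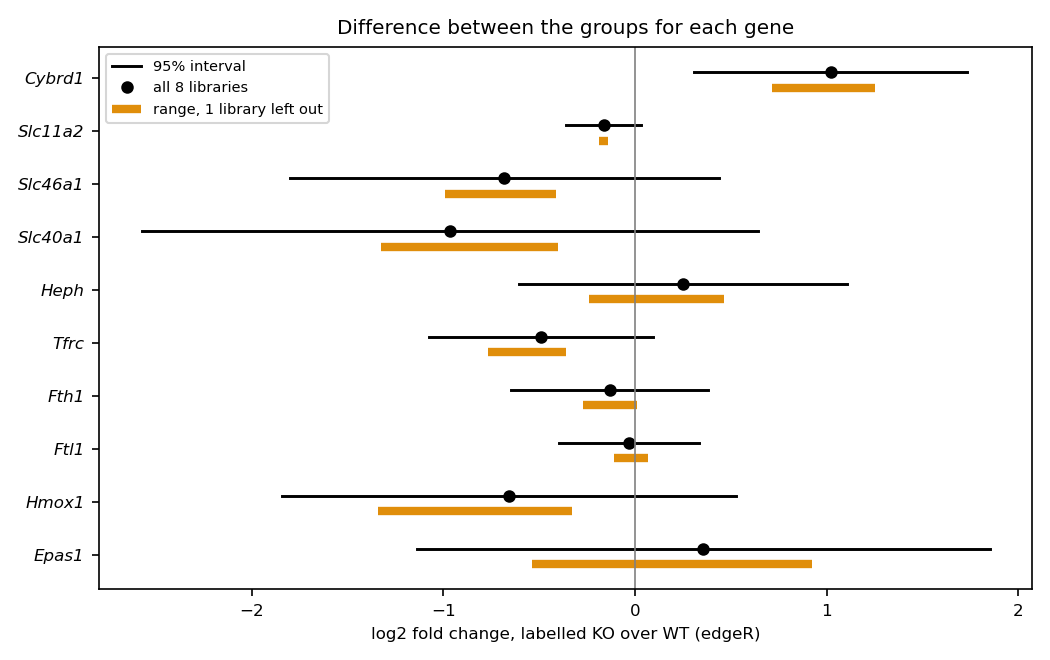
Log2 fold change of labelled knockout over wild type for each gene (points) with its 95% interval (black lines) and the range when single libraries are left out (orange bars). The interval of Cybrd1, 0.31 to 1.73, is the only one of the 10 that leaves out 0; Slc11a2 has the narrowest interval and Slc40a1 the widest.

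At the lumen, the largest difference was in Cybrd1 (ENSMUSG00000027015, chromosome 2, 71117923 to 71142926, plus strand), the brush-border iron reductase. It had 12.5, 19.7, 11.8 and 6.03 CPM in labelled knockout replicates 1 to 4, against 6.55, 5.02, 5.96 and 7.13 CPM in wild-type replicates 1 to 4. Labelled knockout replicates 1 to 3 were above every wild-type library and replicate 4 lay among them, so the groups overlapped. The means were 12.5 ± 5.61 CPM in the labelled knockout group and 6.17 ± 0.903 CPM in the wild-type group (± SD, 4 libraries each), a ratio of 2.03. On the log2 scale the difference was 1.02, SE 0.32 (edgeR, unadjusted p = 0.00989, adjusted p = 0.994). In the authors' deposited table Cybrd1 had a log2 fold change of 1.02, a p of 0.00215 and an adjusted p of 0.454. Leaving out labelled knockout replicate 4 gave a log2 fold change of 1.25, and leaving out replicate 2 of that group, the library with the highest level, gave 0.71.

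The summed level of markers of Paneth cells, the antimicrobial cells of the crypt base, is given beside Cybrd1, and Lyz1 and Defa24 make up most of it. The 4 markers Lyz1, Defa24, Mmp7 and Itln1, none at 0 in any library, summed to 36932, 45983, 28092 and 13388 CPM in labelled knockout replicates 1 to 4, against 19800, 16507, 20291 and 20286 CPM in wild-type replicates 1 to 4. In this sum, as in Cybrd1, labelled knockout replicates 1 to 3 were above every wild-type library and replicate 4 was not. Of the single markers only Lyz1 had that order. Defa24 and Itln1 in labelled knockout replicate 3, and Mmp7 in labelled knockout replicate 1, were each below 2 wild-type libraries. All 4 markers were above 0 in log2 fold change, and 0 were called. Their part in the Cybrd1 difference was not tested. Enterocyte markers took another order, with their highest sum in labelled knockout replicate 4, where Cybrd1 was lowest within its group.

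Slc11a2 (ENSMUSG00000023030, chromosome 15, 100387898 to 100425072, minus strand), the ferrous iron importer DMT1, was the steadiest of the 10. Its levels were 62.0, 61.7, 57.1 and 56.7 CPM in labelled knockout replicates 1 to 4, against 66.5, 67.7, 65.2 and 66.7 CPM in wild-type replicates 1 to 4. All 4 labelled knockout libraries were below all 4 wild-type libraries, the only one of the 10 members without overlap, where 1.53% of all genes tested had none. The means were 59.4 ± 2.86 CPM in the labelled knockout group and 66.5 ± 1.01 CPM in the wild-type group (± SD, 4 libraries each), a difference of -10.7%. Its log2 fold change was -0.16, SE 0.088, with an interval of -0.36 to 0.034 (edgeR, unadjusted p = 0.0942, adjusted p = 0.994). On the FPKM scale the groups were apart as well, at most 9.67 in labelled knockout libraries and at least 10.2 in wild-type libraries. On total counts without TMM they overlapped, at 64.21 CPM in labelled knockout replicate 3 and 64.20 CPM in wild-type replicate 3. The opposite-strand gene Gm5475 inside its span had 4 to 16 counts in any library.

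Slc46a1 (ENSMUSG00000020829, chromosome 11, 78465697 to 78472059, plus strand), the proton-coupled folate transporter that was first described as a heme carrier, varied within each group more than between them. It had 35.1, 44.4, 20.6 and 18.6 CPM in labelled knockout replicates 1 to 4, against 13.5, 72.0, 34.2 and 70.8 CPM in wild-type replicates 1 to 4. The wild-type libraries held both the lowest and the highest values. Its log2 fold change of -0.68 had an SE of 0.50 (interval -1.80 to 0.44), and it was -0.99 without wild-type replicate 1 and -0.41 without wild-type replicate 2.

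At the blood side, Slc40a1 (ENSMUSG00000025993, chromosome 1, 45908068 to 45926523, minus strand), the iron exporter ferroportin, was low and uneven. It had 2.72, 1.82, 5.54 and 6.26 CPM in labelled knockout replicates 1 to 4, against 1.23, 15.7, 3.51 and 11.5 CPM in wild-type replicates 1 to 4. Wild-type replicates 2 and 4 were above every labelled knockout library and wild-type replicate 1 was below them all. On the log2 scale the difference was -0.97, SE 0.71, with an interval of -2.58 to 0.64. It was -1.33 without wild-type replicate 1 and -0.40 without wild-type replicate 2. Behind these levels stood 28 to 94 counts in labelled knockout libraries and 20 to 251 in wild-type libraries.

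Macrophages also express ferroportin and heme oxygenase, and macrophage markers were present at low levels. All 10 markers in the list summed to 13.7 to 17.4 CPM in the labelled knockout libraries and 11.8 to 35.3 CPM in the wild-type libraries. Cd163 was at 0 in all libraries but wild-type replicate 1, which had 1 count. Wild-type replicate 2 had both the highest macrophage sum and the highest Slc40a1 level, whereas wild-type replicate 4 had the lowest macrophage sum, 11.8 CPM, and the second highest Slc40a1 level, 11.5 CPM. The 8 macrophage markers tested were all below 0 in log2 fold change, with a median of -0.39 and 0 called. So were the 6 T cell markers tested, with a median of -0.38, and the 2 fibroblast markers tested, with a median of -0.81. The part of the macrophage markers in the Slc40a1 values was not tested.

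Heph (ENSMUSG00000031209, chromosome X, 96455359 to 96574485, plus strand), the copper-containing ferroxidase hephaestin that works with ferroportin, turned on labelled knockout replicate 4. It had 199, 265, 147 and 535 CPM in labelled knockout replicates 1 to 4, against 161, 308, 248 and 248 CPM in wild-type replicates 1 to 4. Within the labelled knockout group replicate 4 lay above the wild-type range and replicate 3 below it. A log2 fold change of 0.25 (SE 0.38, interval -0.61 to 1.11) became -0.24 without replicate 4. The enterocyte marker sum was also highest in replicate 4, and its part in the Heph value was not tested.

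Tfrc (ENSMUSG00000022797, chromosome 16, 32608920 to 32632794, plus strand), the transferrin receptor through which dividing crypt cells take iron from the blood, overlapped between the groups through 1 library. It had 172, 176, 307 and 151 CPM in labelled knockout replicates 1 to 4, against 236, 325, 213 and 358 CPM in wild-type replicates 1 to 4. Labelled knockout replicates 1, 2 and 4 were below every wild-type library and replicate 3 lay among them. The means were 201 ± 71.1 CPM in the labelled knockout group and 283 ± 69.4 CPM in the wild-type group (± SD, 4 libraries each). On the log2 scale the difference was -0.49, SE 0.26, with an interval of -1.07 to 0.094 (edgeR, unadjusted p = 0.0903, adjusted p = 0.994), and leaving out labelled knockout replicate 3 gave -0.77. Crypt stem cell markers summed to 2822, 1875, 2596 and 967 CPM in labelled knockout replicates 1 to 4, against 3187, 1769, 1679 and 2067 CPM in wild-type replicates 1 to 4. Most of this sum is Olfm4, at 840 to 2933 CPM per library. The sum and Tfrc were both lowest in labelled knockout replicate 4 and wild-type replicate 3 within their groups, and were highest in different libraries. The part of these markers in the Tfrc values was not tested.

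**Figure D3:**
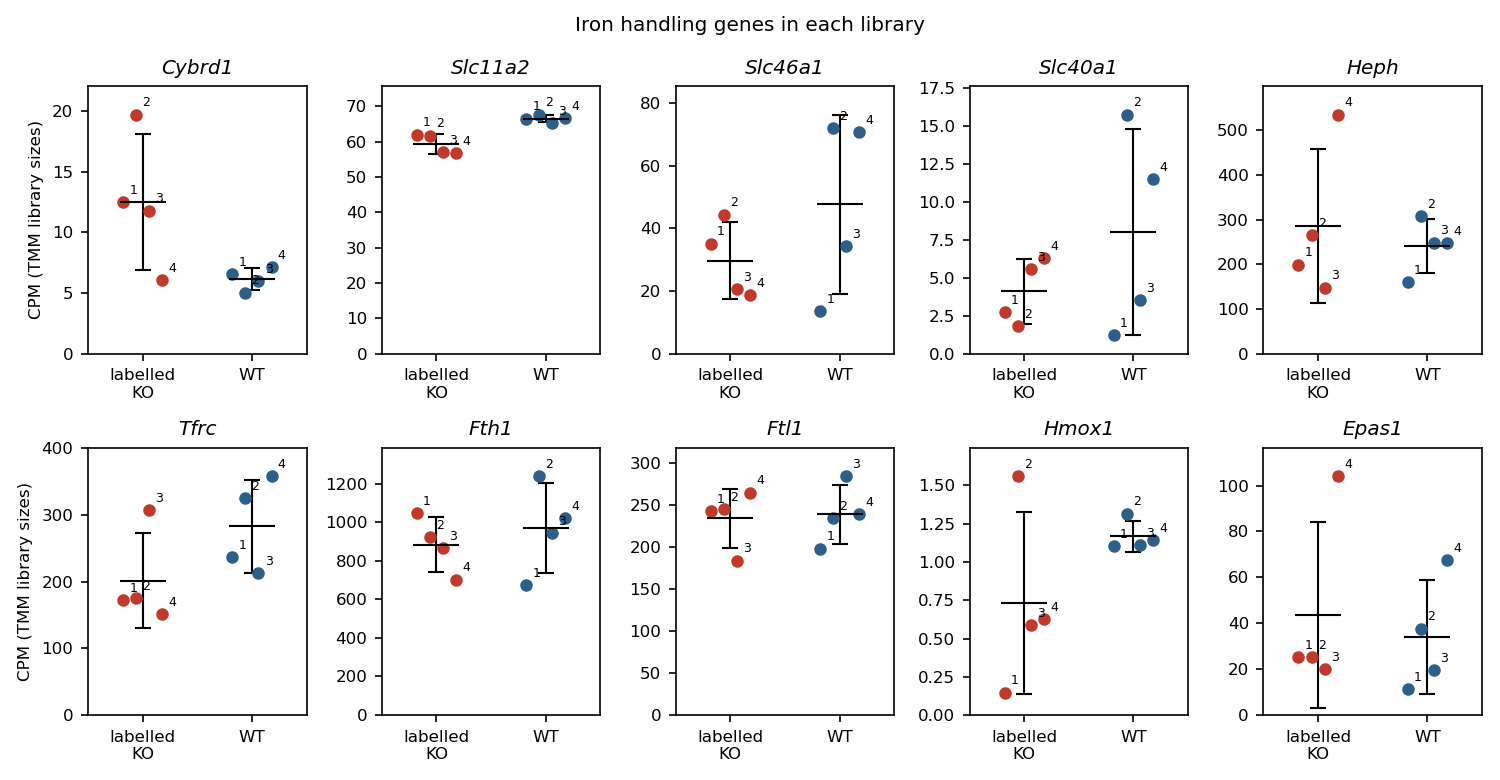
CPM of each gene in the 4 labelled knockout libraries (red) and the 4 wild-type libraries (blue), numbered by replicate, with the mean and SD as black bars. Slc11a2 is the only gene whose groups do not overlap; in Cybrd1 labelled knockout replicate 4, at 6.03 CPM, lies among the wild-type points, and in Epas1 and Heph the same library is the highest of all 8.

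The ferritin genes differed least. Fth1 (ENSMUSG00000024661, chromosome 19, 9980598 to 9985098, plus strand), the heavy subunit with ferroxidase activity, had 1047, 925, 866 and 703 CPM in labelled knockout replicates 1 to 4, against 673, 1240, 943 and 1023 CPM in wild-type replicates 1 to 4. Ftl1 (ENSMUSG00000050708, chromosome 7, 45457944 to 45459884, minus strand), the light subunit that aids iron core formation, had 243, 246, 184 and 265 CPM in labelled knockout replicates 1 to 4, against 198, 234, 285 and 240 CPM in wild-type replicates 1 to 4. The groups overlapped in both genes. Fth1 had a log2 fold change of -0.13 with an interval of -0.64 to 0.38. Ftl1 had -0.030 with an interval of -0.39 to 0.33, so a change of Ftl1 to under 0.761-fold or over 1.26-fold lies outside its interval. Both changed sign when single libraries were left out, from -0.27 to 0.0095 for Fth1 and from -0.11 to 0.070 for Ftl1. The Fth1 to Ftl1 ratio in FPKM was 1.67, 1.45, 1.82 and 1.03 in labelled knockout replicates 1 to 4, against 1.31, 2.04, 1.28 and 1.65 in wild-type replicates 1 to 4. The size of this ratio rests on deposited gene lengths of 3469 bases for Fth1 and 1340 for Ftl1. Ferritin genes have near-identical copies between which reads may be split. Ftl1-ps1 had 195 to 259 counts in labelled knockout libraries and 211 to 338 in wild-type libraries, beside 3121 to 3778 and 3238 to 4868 counts of Ftl1.

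Hmox1 (ENSMUSG00000005413, chromosome 8, 75093621 to 75100589, plus strand), the inducible enzyme that frees iron from heme, was near the lower limit of measurement. It had 2, 24, 10 and 8 counts in labelled knockout replicates 1 to 4, against 18, 21, 19 and 17 counts in wild-type replicates 1 to 4. The labelled knockout libraries spread more widely, with 3 of them below every wild-type library and replicate 2 above. A count of 2 has an exact Poisson 95% interval of 0.242 to 7.22, which covers counting error only. Its log2 fold change of -0.66 had an interval of -1.84 to 0.53. Leaving out labelled knockout replicate 2 gave -1.34, and leaving out replicate 1 of that group gave -0.33.

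Epas1 (ENSMUSG00000024140, chromosome 17, 86753700 to 86833410, plus strand), the gene of HIF-2alpha, varied more within groups than between them. It had 25.1, 25.1, 19.9 and 104 CPM in labelled knockout replicates 1 to 4, against 11.3, 37.6, 19.4 and 67.5 CPM in wild-type replicates 1 to 4. Replicate 4 was the highest in each group. A log2 fold change of 0.36 (SE 0.66, interval -1.14 to 1.85) became -0.54 when labelled knockout replicate 4 was left out and 0.92 when wild-type replicate 4 was. HIF-2alpha is controlled mainly through protein stability, which transcript counts do not show. The hypoxia core motif, ACGTG or GCGTG on either strand, was in the promoters (250 bases before to 50 after the start, RefSeq, GRCm38.p6) of Cybrd1, Slc46a1, Ftl1, Tfrc and Fth1, the 5 members with a promoter in that table. Fth1 held it at 1 of its 2 starts. Of all 32851 promoters, each counted singly, 43.8% held it. The share of genes with it at any start, the unit used for the members, was not computed.

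Among 14 hypoxia-inducible genes outside iron handling, 5 were above 0 and 9 below 0 on the log2 fold scale, and 0 were called. Their median was -0.12, with a range of -0.76 to 0.75. Ndrg1, a stress-responsive gene, had 193, 108, 129 and 196 CPM in labelled knockout replicates 1 to 4, against 98.9, 83.1, 103 and 120 CPM in wild-type replicates 1 to 4, a log2 fold change of 0.63, SE 0.21 (edgeR, unadjusted p = 0.0150, adjusted p = 0.994). Ddit4, an inhibitor of mTORC1 signalling, had 50.05, 55.2, 63.0 and 77.6 CPM in labelled knockout replicates 1 to 4, against 56.4, 43.4, 34.7 and 43.7 CPM in wild-type replicates 1 to 4, a log2 fold change of 0.46, SE 0.18 (edgeR, unadjusted p = 0.0289, adjusted p = 0.994). The groups overlapped in both genes, the only 2 of the 14 with an edgeR unadjusted p under 0.05, where 2.70% of all genes tested had one. They are shown for their low p and do not stand for the list. Both genes are known to respond to other stresses and hormones too.

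Several members shared their high and low libraries. Wild-type replicates 2 and 4 were the highest 2 of their group in 7 of the 10 genes (Slc11a2, Slc46a1, Slc40a1, Tfrc, Fth1, Hmox1 and Epas1), where 15.6% of all genes tested showed that order. Wild-type replicate 1 was the lowest of its group in 7 of the 10, where it was lowest in 29.1% of all genes tested. Both orders were picked after the values were seen, and the genes share their libraries, so they are not separate cases. In some genes the order rests on small differences. The wild-type libraries spanned 1.10 to 1.32 CPM in Hmox1 and 65.2 to 67.7 CPM in Slc11a2. The proximal intestine markers, whose sum is mostly Fabp1 and Lct, gave 1275 CPM in wild-type replicate 1, against 2331 to 2606 CPM in the other wild-type libraries, and the enterocyte sum was also lowest there, at 17596 CPM. Of the proximal markers only Onecut2 was not lowest there, at 53.7 CPM against 28.2 to 82.0 CPM. The distal intestine markers summed to 206 CPM in wild-type replicate 1, within the 161 to 548 CPM of the other wild-type libraries. Whether these markers carry the iron genes with them was not tested. In the labelled knockout group the highest library was replicate 4 in 4 members and the lowest was replicate 4 in 5, against 34.3% and 38.5% of all genes tested. Largest over smallest CPM within a group reached 10.6 for Hmox1 in labelled knockout libraries, where the median over all genes tested was 1.69. It reached 12.8 for Slc40a1 in wild-type libraries, where that median was 1.44. For Slc11a2 the same ratio was 1.09 in labelled knockout libraries and 1.04 in wild-type libraries.

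**Figure D4:**
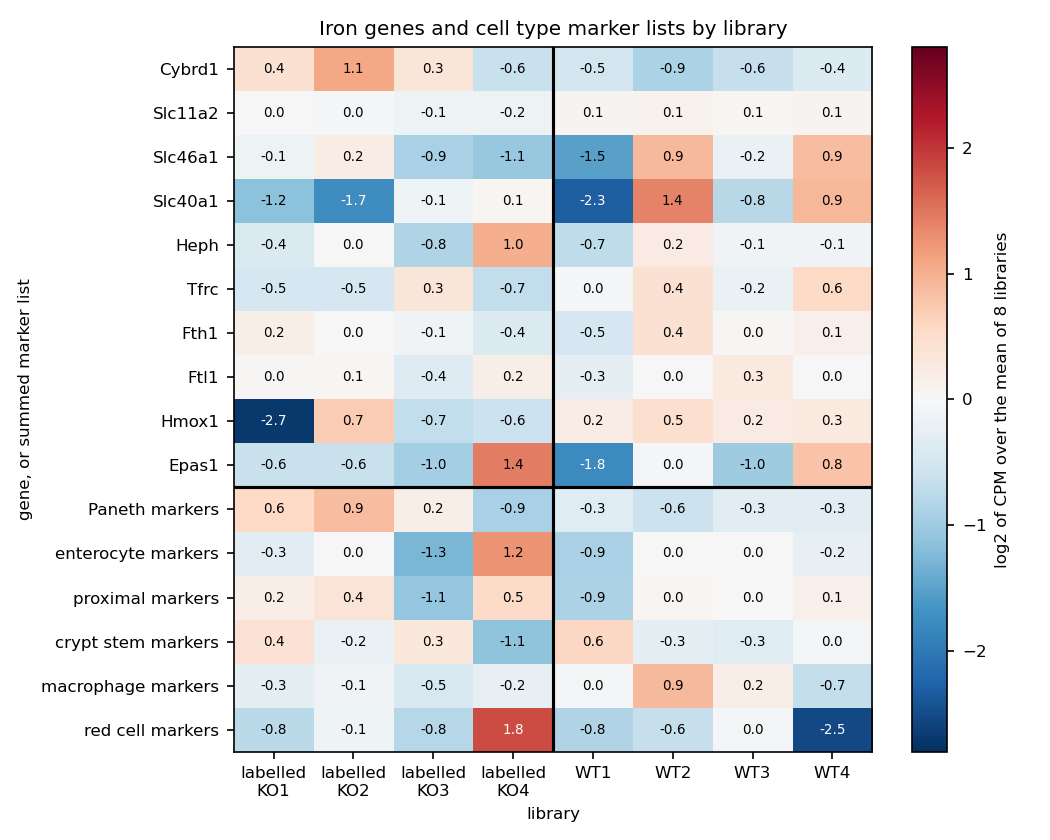
Log2 of CPM over the mean of all 8 libraries for each gene (upper rows) and for summed cell type marker lists (lower rows), labelled knockout libraries on the left and wild-type libraries on the right. Cybrd1 and the Paneth marker sum, mostly Lyz1 and Defa24, are above all wild-type libraries in labelled knockout replicates 1 to 3; Slc46a1, Slc40a1 and Epas1 are low in wild-type replicate 1 and highest within their group in wild-type replicates 2 and 4.

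Other genes of iron and heme handling gave no calls. Beside the 10 members, 4 lists of 66 such genes were read from the same fit, of which 57 were tested, 0 were called by edgeR and 0 had an unadjusted p under 0.05. With the hypoxia and NRF2 target lists, which hold genes outside iron handling, 77 of 86 genes were tested and 0 called by edgeR, DESeq2 or limma-voom. Of the 77, 39 were above 0 and 38 below 0 in log2 fold change, with a median of 0.012, and the 2 with an unadjusted p under 0.05 (2.60%, against 2.70% of all genes tested) were Ndrg1 and Ddit4. Of the 77, only Blvra, the biliverdin reductase that acts after heme oxygenase, had groups that did not overlap (1.30%, against 1.53% of all genes tested). It had 16.3, 16.3, 18.2 and 16.5 CPM in labelled knockout replicates 1 to 4, against 20.5, 19.4, 19.4 and 18.8 CPM in wild-type replicates 1 to 4. Its log2 fold change was -0.21, SE 0.11 (edgeR, unadjusted p = 0.0803, adjusted p = 0.994). On total counts without TMM its groups overlapped, with 20.5 CPM in labelled knockout replicate 3 against 18.8 CPM in wild-type replicate 2.

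By function, the 16 genes of heme synthesis, breakdown and export had a median log2 fold change of -0.035, and Alad, the second enzyme of heme synthesis, stood at -0.17 (SE 0.11). The 15 genes of iron-sulfur cluster assembly had a median of -0.060, with 10 below 0, and the largest was Bola3, an assembly factor, at -0.33 (SE 0.18). Cisd1, an iron-sulfur protein of the outer mitochondrial membrane, was at -0.18 (SE 0.13). Of the iron sensing list, 12 of 17 genes were tested with a median of 0.097. Fbxl5, the iron-sensing ligase subunit that degrades IRP2, was at 0.32 (SE 0.20) and Arnt, the partner of HIF-2alpha, at 0.15 (SE 0.13). The iron regulatory protein genes Aco1 and Ireb2 were at 0.12 (SE 0.18) and 0.13 (SE 0.15). Of other iron and heme transporters, 14 of 18 were tested with a median of 0.095. Slc25a37, the mitochondrial importer mitoferrin 1, was at 0.28 (SE 0.23) and the metalloreductase gene Steap2 at -0.35 (SE 0.35). The 6 NRF2 targets had a median of 0.14. Slc7a11, a cystine transporter, was at 1.14 (SE 0.63) but at 0.038 without labelled knockout replicate 2, and Nqo1, a quinone reductase, was at -0.34 (SE 0.22). Labelled knockout replicate 4 weighed on several of these values. Without it Slc25a37 was at 0.045, Fbxl5 at 0.10, Arnt at 0.024, Steap2 at -0.11 and Bola3 at -0.19. Cisd1 was at -0.29 without wild-type replicate 1 and at -0.12 without wild-type replicate 4, and Nqo1 at -0.21 without wild-type replicate 4. Every gene named in this paragraph had an edgeR adjusted p = 0.994.

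Blood in a sample would bring heme and iron with it, so red blood cell markers were read too. The 7 markers found in the table summed to 8.90 to 55.1 CPM in the labelled knockout libraries and 2.69 to 15.03 CPM in the wild-type libraries. Slc4a1 was at 0 in every library. The 4 markers tested were all above 0 on the log2 fold scale, with a median of 1.47 and 0 called. In summed level, labelled knockout replicates 1 to 3, at 9.19, 14.3 and 8.90 CPM, lay within the wild-type range. Wild-type replicate 4 had the lowest sum, 2.69 CPM. The highest sum, 55.1 CPM, was in labelled knockout replicate 4, where Epas1 and Heph were also highest. Its part in those values was not tested.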

How the data were processed

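Per the labels' protocols, TRIzol RNA went into a directional library kit. The submitters' processing notes name HISAT2 and DESeq2 with no version or role; read counter, strand setting and build are not stated there, so reads of overlapping genes may be mixed. The deposited table gives raw counts for each gene in each library, per the file headers. The deposited FPKM are those counts divided by gene length and by the libraries' size factors, a relation that held in the values. The authors' columns of group averages, with the unit signal, are mean scaled counts. The authors deposited log2 fold changes and p-values for all 10 members. They are quoted here only for Cybrd1, which had the lowest deposited p of the 10. Coordinates matched GENCODE M21 (GRCm38) for 99.5% of 55144 shared identifiers and for all 10 members.

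Counts were tested with edgeR 4.0.16 (R 4.3.3) (quasi-likelihood, robust, TMM, filterByExpr), with Benjamini-Hochberg adjustment over 14897 genes and a threshold of 0.05. The SE is the absolute log2 fold change over the square root of F, an approximation, and intervals use the t quantile of the same test. DESeq2 1.42.0 and limma-voom (limma 3.58.1) were alternatives. The method was tested on simulated data. The members and lists were chosen with earlier results of these data known. Named are all members and, per list, called genes, and in a list with no call the 2 of lowest p, with Aco1, Ireb2 and genes single in a pattern named after their values were seen; marker lists are given as summed levels. Every pair of libraries within a group differed beyond counting noise, with a chi-square over its degrees of freedom of 28.9 or more.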

Additional observations from a re-analysis of the deposited data

Results flagged for a closer look

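In 20 groups of 4 libraries, 10 genes in each of 2 genotypes, 2 single libraries lay far from the other 3 of their group. Chance flags about 1 in 20 groups where values are normal and independent. The groups here share their libraries, and the share of all genes flagged in this way was not computed. Tfrc stood at 307 CPM in labelled knockout replicate 3, against 151 to 176 CPM in the other labelled knockout libraries, a gap of 0.844 of the group's range. Epas1 stood at 104 CPM in labelled knockout replicate 4, against 19.9 to 25.1 CPM in the other labelled knockout libraries, a gap of 0.938 of the range. Both gaps were past Dixon's 95% critical value. Of all genes tested, 30.8% were highest within the labelled knockout group in replicate 3 and 34.3% in replicate 4.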

How the results depend on the processing

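The count of members called was 0 in every setting tried: RLE size factors, DESeq2, limma-voom, no low-count filter, at least 5 CPM in 4 libraries, the replicate block, total counts without TMM (chosen after seeing the data) and each library left out. The count of other iron genes called was 0 in the same settings. Over all genes, 3 were called, 24 with DESeq2 and 5 with no low-count filter, and 2 to 3 with single libraries left out; the cause was not tested. The replicate numbers did not pair the libraries (correlation of same-numbered deviations -0.39 to 0.075, with 1 of 4 labelled knockout libraries closest to its own number), and with the number as a block 2 genes and 0 members were called. Under the block, Cybrd1 had a log2 fold change of 0.92 and Slc40a1 -0.52. With limma-voom Slc40a1 had -0.52 as well, against -0.97.

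Of 22 named genes, none changed direction under the settings that keep all 8 libraries, except that Hmox1 and Slc7a11 were not tested with at least 5 CPM in 4 libraries, which leaves 20 there. With single libraries left out, 4 changed direction: Heph ran from -0.24 to 0.47, Epas1 from -0.54 to 0.92, Fth1 from -0.27 to 0.0095 and Ftl1 from -0.11 to 0.070. Total counts without TMM moved the median of all genes to -0.068, from 0.011. Depth limits Hmox1, with 2 to 24 counts per library, and Slc40a1, with 20 to 251.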

Other observations

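Over the 8 libraries, the 5 genes whose log2 CPM followed Cybrd1 most closely, of 14896 searched, were Rpl10-ps3 (Pearson 0.98), St6galnac4 (0.97), Gm6665 (0.97), 2510009E07Rik (0.96) and 2900089D17Rik (0.96). They were chosen for this likeness, share libraries and depth with Cybrd1, and were low, at 0.376 to 16.9 CPM in any library. Rpl10-ps3, annotated by its name as a ribosomal protein pseudogene, had 2.28, 2.67, 2.24 and 1.64 CPM in labelled knockout replicates 1 to 4, against 1.47, 1.32, 1.46 and 1.68 CPM in wild-type replicates 1 to 4, so labelled knockout replicate 4 lay within the wild-type range, as it did for Cybrd1.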
